A study of Homo sapiens with 4 samples.

Results

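The comparison described here is the change in the azacytidine response between 24 h and 48 h of treatment in LNCaP cells. For each gene the log2 ratio of azacytidine over vehicle was averaged over the 2 arrays at 48 h, and the same average over the 2 arrays at 24 h was subtracted from it. It covered 18334 of the 18334 genes measured and 4 of the 4 arrays. LNCaP is a human prostate carcinoma line, derived from a metastasis in a lymph node, that keeps the luminal and androgen-driven character of the prostate. All cells went without serum for 24 h. They then received either 5-azacytidine at 1 µM or dimethyl sulphoxide (DMSO), the solvent of the drug, and RNA was taken after 24 h or 48 h. On each 2-colour Agilent array DMSO RNA was labelled with Cy3 and azacytidine RNA with Cy5, without a dye swap, so a dye bias that is the same on all arrays cancels in the difference.

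Azacytidine is a cytidine analogue that cells build into RNA and DNA. In DNA it traps DNA methyltransferases, so methylation is lost over successive rounds of replication, and in RNA it disturbs the processing and translation of transcripts. In prostate cancer cells it is known for re-expression of genes with methylated promoters, germline genes among them, and for activation of interferon and p53 programmes.

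Every value below is a log2 ratio of azacytidine over DMSO, so a value of 1 is 2-fold above the vehicle of the same time. "Higher" and "lower" mean that this ratio was higher or lower at 48 h than at 24 h and passed limma's test, a linear model fitted across all genes, at a Benjamini-Hochberg adjusted p of 0.05. Differences are given with the standard error (SE) of that fit, over 2 arrays at each time. The array features of a gene were read on the same arrays, so their agreement adds no replicate of a time. Each time had its own vehicle, so a change in treated cells and a change in vehicle cells cannot be told apart. The labels do not say that replicate arrays came from separate cultures, so the p-values measure only how far these arrays spread, part or all of which may be technical. The arrays give ratios and not levels, so the cell line could not be checked against the levels of its markers, and fewer cells of a type and less RNA per cell cannot be told apart.

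The response at 48 h was not a stronger copy of the response at 24 h. Of 18334 genes, 4211 (23%) differed between the times, 1802 (9.83%) higher and 2409 (13.1%) lower. Of the lower genes 1785 differed at least 2-fold, 692 at least 4-fold and 172 at least 8-fold, against 1000, 133 and 11 of the higher genes. The median difference was -1.45 among lower genes, 1.06 among higher genes and 0 over all genes, with quartiles of -0.73 and 0.58. In all 4211 the arrays of one time lay apart from those of the other, which passing the test with 2 arrays at each time all but requires. They lay apart in 13030 genes in all. Across genes, which are no independent replicates, the 24 h pair of arrays correlated with r = 0.917, the 48 h pair with r = 0.873, and arrays of different times with r from 0.293 to 0.54. The 48 h pair was the less precise, since its arrays differed by a median of 0.332 per gene in size and those of 24 h by 0.126.

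Which direction held more genes depended on the setting. Higher genes made up 42.8% of the calls as deposited, 53.4% (3673 of 6879) after quantile normalization and 36% (939 of 2609) with robust variance moderation. With either 24 h array left out limma called 0 genes, although 3809 and 3821 genes had an unadjusted p under 0.05. Leaving out 48 h replicate 1 gave 7786 calls, and leaving out 48 h replicate 2 gave 4327.

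Most genes that were lower at 48 h had been above vehicle at 24 h and stood below it at 48 h. This pattern, on both arrays of each time, held 1742 of the 2409 lower genes (72.3%), with a median of 0.56 at 24 h and -1.04 at 48 h. In 818 of the 1742 the means of both times were at least 0.5 in size. Another 325 lower genes were below vehicle at both times and further below at 48 h, and 107 were above it at both times but less so at 48 h. Higher genes were split more evenly. Of 1802, 1028 (57%) went from below vehicle (median -0.53) to above it (median 0.57), and 389 (21.6%) were above vehicle at both times, with a median of 0.59 at 24 h and 1.77 at 48 h. In 309 of the 1028 the means of both times were at least 0.5 in size.

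Genes with a strong response at 24 h had different fates. Of 1816 genes at least 2-fold above vehicle on both 24 h arrays, 951 (52.4%) were at least 2-fold above it on both 48 h arrays. Another 161 (8.87%) were at least 2-fold below it on both 48 h arrays. Of 815 genes at least 2-fold below vehicle on both 24 h arrays, 202 (24.8%) were still at least 2-fold below on both 48 h arrays. On both 48 h arrays 22 (2.7%) were at least 2-fold above. These shares were not tested against each other.

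**Figure D1:**
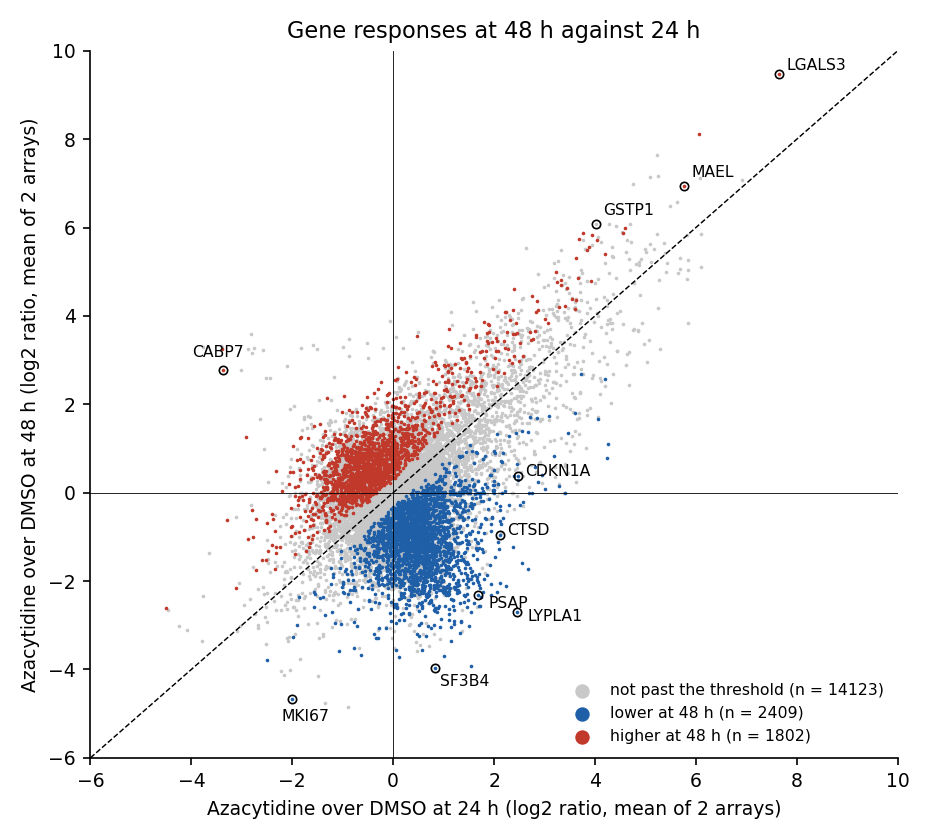
Each point is a gene, with the mean log2 ratio of azacytidine over DMSO at 24 h on the horizontal axis and at 48 h on the vertical axis (2 arrays each), coloured by whether the difference passed limma's threshold; the dashed line marks equal ratios. The 2409 lower genes lie mostly right of 0 and below it, whereas the 1802 higher genes spread from the left of 0 to the strongly induced genes at the upper right.

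Of the 34 gene lists examined, that of translation factors had the highest share of lower genes. Of 42 measured translation factors 20 (47.6%) were lower and 1 was higher, against 13.1% and 9.83% of all genes. The median ratio of the list was 0.39 and 0.38 at 24 h and -0.65 and -1.01 at 48 h, a median difference of -1.10. EEF1A1, the elongation factor that delivers aminoacyl-tRNA to the ribosome, stood at 0.77 and 0.74 at 24 h and at -2.39 and -2.48 at 48 h (difference -3.19 ± 0.06, limma adjusted p = 0.0211). ETF1, the release factor that reads stop codons, gave 1.12 and 1.12 at 24 h and -1.49 and -1.57 at 48 h (difference -2.65 ± 0.06, limma adjusted p = 0.0211). Both genes were thus above vehicle on each 24 h array and below it on each 48 h array. EIF5A, which keeps ribosomes from stalling, went from 0.72 and 0.62 to -1.36 and -1.53 (difference -2.12 ± 0.10, limma adjusted p = 0.0228). By family, 3 of 5 subunits of eIF2B, the exchange factor of initiation, were lower, as were 4 of 13 subunits of eIF3 and 3 of 4 eEF1 genes, and none was higher. The same turn was seen in EEF2 (-2.38), the scaffold EIF4G1 (-2.08) and EIF2S1 (-3.17), a subunit of the factor that brings initiator tRNA. EIF4EBP1, which holds back cap-dependent initiation, was the exception, at -0.74 and -0.70 at 24 h and -0.28 and -0.26 at 48 h (difference 0.46 ± 0.05, limma adjusted p = 0.0343). The families and EEF2, EIF4G1, EIF2S1 and EIF4EBP1 were picked after their values were seen.

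Cytosolic ribosomal proteins shared the direction with more scatter. Of 68 measured genes 16 (23.5%) were lower and 3 higher, and 11 of the 68 had a difference above 0. Their median ratio was 0.015 and 0.082 at 24 h and -0.70 and -1.43 at 48 h, so both 48 h arrays lay below both 24 h arrays but apart from each other. Small-subunit (RPS) genes had 24 of 25 differences below 0, and large-subunit (RPL) genes 33 of 42. RPS10 of the small subunit stood at 0.58 and 0.63 and then at -0.66 and -0.73 (difference -1.30 ± 0.06, limma adjusted p = 0.0228). RPS2, also of the small subunit, went from 0.57 and 0.55 to -1.67 and -1.86 (difference -2.33 ± 0.09, limma adjusted p = 0.0225), although 1 of its 6 features had a difference of 0.51. RPL41, a very small protein of the large subunit, had 1 feature, at 1.55 and 1.89 and then -2.11 and -3.03 (difference -4.29 ± 0.42, limma adjusted p = 0.033). The 3 higher genes were RPL14 (0.81), RPL27A (0.80) and RPLP2 (0.83), named after their values were seen. RPL13A was called lower at -0.98, but its 4 features ran from -2.65 to 1.96, and the difference was 0.0011 when features of one transcript accession were averaged first. Ribosomal protein genes have many near-identical pseudogenes, and the specificity of the features was not tested.

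Ribosome assembly and splicing genes differed about as often as all genes. Of 40 ribosome biogenesis genes 6 (15%) were lower and 3 higher, with a median difference of -0.28. NOB1, the nuclease that finishes the 18S ribosomal RNA, went from 0.56 and 0.67 to -1.87 and -2.19 (difference -2.64 ± 0.15, limma adjusted p = 0.0242), and its partner PNO1 changed by -2.18 ± 0.21 (limma adjusted p = 0.0317). Of 52 splicing factors and hnRNPs 7 (13.5%) were lower and 4 higher, close to the shares over all genes, with a median of -0.15. SF3B4, a subunit of the U2 snRNP, turned from 0.78 and 0.86 to -3.76 and -4.19 (difference -4.79 ± 0.19, limma adjusted p = 0.0225). SNRPB, a core Sm protein, was also lower, by -2.73 ± 0.18 (limma adjusted p = 0.0257). SNRPD3, another Sm protein, went the other way, from -0.49 and -0.52 to 0.64 and 0.65 (difference 1.15 ± 0.04, limma adjusted p = 0.0225).

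Genes of protein breakdown were also among those lower at 48 h. Of 44 lysosomal genes 19 (43.2%) were lower and 2 higher, with list medians of 0.58 and 0.50 at 24 h and -0.28 and -0.53 at 48 h. PSAP, the precursor of the saposins that help degrade sphingolipids, stood at 1.68 and 1.69 at 24 h and at -2.28 and -2.33 at 48 h (difference -3.99 ± 0.05, limma adjusted p = 0.0211). ATP6V1B2, a subunit of the proton pump that acidifies the lysosome, went from 1.08 and 1.28 to -2.45 and -2.41 (difference -3.61 ± 0.10, limma adjusted p = 0.0211). In both genes the replicates of a time lay close together and the times far apart. Of the 15 measured genes of that pump 9 were lower and 0 higher, and of 11 cathepsins, the lysosomal proteases, 5 were lower and 1 higher. TPP1, a lysosomal peptidase, was near vehicle at 24 h, at 0.053 and 0.17, and below it at 48 h, at -1.65 and -1.70 (difference -1.79 ± 0.07, limma adjusted p = 0.0225). The protease gene CTSD (-3.08) and the membrane protein gene LAMP1 (-2.08) were lower too, while the 2 higher genes, CTSV (0.38) and NPC2 (0.45), differed little. These 4, and the 2 families, were picked after their values were seen.

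Of 29 proteasome subunits 8 (27.6%) were lower and 1 higher, and 2 of the 29 had a difference above 0, with a median of -1.15. PSMC3, an ATPase of the regulatory particle, went from 0.35 and 0.28 to -2.02 and -2.24 (difference -2.44 ± 0.11, limma adjusted p = 0.0228). PSMD2, a scaffold of the same particle, went from 1.24 and 1.06 to -1.30 and -1.53 (difference -2.56 ± 0.13, limma adjusted p = 0.0233), and PSMA7 of the core changed by -2.52 ± 0.18 (limma adjusted p = 0.0268). The higher subunit was PSMB4 of the core, at 0.46, named after its value was seen. Heat shock proteins and chaperones had a median of -0.82 with 5 of 33 (15.2%) lower and 3 (9.09%) higher, close to the 13.1% and 9.83% of all genes. HSPA8, the constitutive HSP70, turned from 1.83 and 1.61 to -2.04 and -2.26 (difference -3.87 ± 0.14, limma adjusted p = 0.0221), with 4 of its 5 features below -4 and the fifth at 0.095. TCP1, a subunit of the chaperonin that folds actin and tubulin, was lower with a difference of -3.0 ± 0.17 (limma adjusted p = 0.0242). HSPA6, a heat-inducible HSP70 named after its value was seen, was higher by 0.54, a difference that was -0.0254 with the arrays scaled to one spread.

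Genes of the respiratory chain had a median below 0, but a share of lower calls near that of all genes. Of 59 genes of the respiratory chain and ATP synthase 10 (16.9%) were lower and 3 higher, beside 13.1% and 9.83% of all genes, and the list median was -0.79. ATP5F1B, the catalytic subunit of ATP synthase, stood at 1.19 on both 24 h arrays and at -2.64 and -2.48 at 48 h (difference -3.75 ± 0.08, limma adjusted p = 0.0211). SDHA, the flavoprotein of succinate dehydrogenase, went from 0.84 and 0.84 to -1.44 and -1.41 (difference -2.27 ± 0.04, limma adjusted p = 0.0211). NDUFA10 of complex I was lower with a difference of -1.87 ± 0.05 (limma adjusted p = 0.0211). All 3 turned from above to below vehicle. The 3 higher genes, ATP5ME (0.58), COX6B1 (0.96) and NDUFB8 (1.00), named after their values were seen, turned from below to above it.

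Cholesterol and fatty acid synthesis held 7 lower genes of 28 (25%) and 2 higher, with a median of -0.57. NSDHL, a sterol dehydrogenase, went from 0.88 and 0.72 to -2.14 and -2.12 (difference -2.93 ± 0.08, limma adjusted p = 0.0211). IDI1, the isomerase that makes dimethylallyl diphosphate, changed by -3.05 ± 0.26 (limma adjusted p = 0.0292) and FASN, the fatty acid synthase, by -1.75 ± 0.10 (limma adjusted p = 0.0243). MSMO1, the sterol oxidase of the same pathway, was among the 12 lowest called genes with no feature at exactly 0 on any array, at 1.13 and 0.90 and then -2.93 and -4.44 (difference -4.70 ± 0.66, limma adjusted p = 0.0439). DHCR7 (0.87) and FADS1 (0.93) were the higher members, named after their values were seen. Of 34 hypoxia and glycolysis genes 9 (26.5%) were lower and 4 higher, with a median of -0.51. ENO1, the glycolytic enolase, turned from 1.03 and 1.20 to -2.04 and -2.41 (difference -3.34 ± 0.18, limma adjusted p = 0.0238). In contrast ADM, which encodes the vasodilator adrenomedullin, grew from 2.75 and 2.91 to 4.03 and 4.13 (difference 1.25 ± 0.09, limma adjusted p = 0.0268), and all 10 of its features lay between 1.19 and 1.30.

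**Figure D2:**
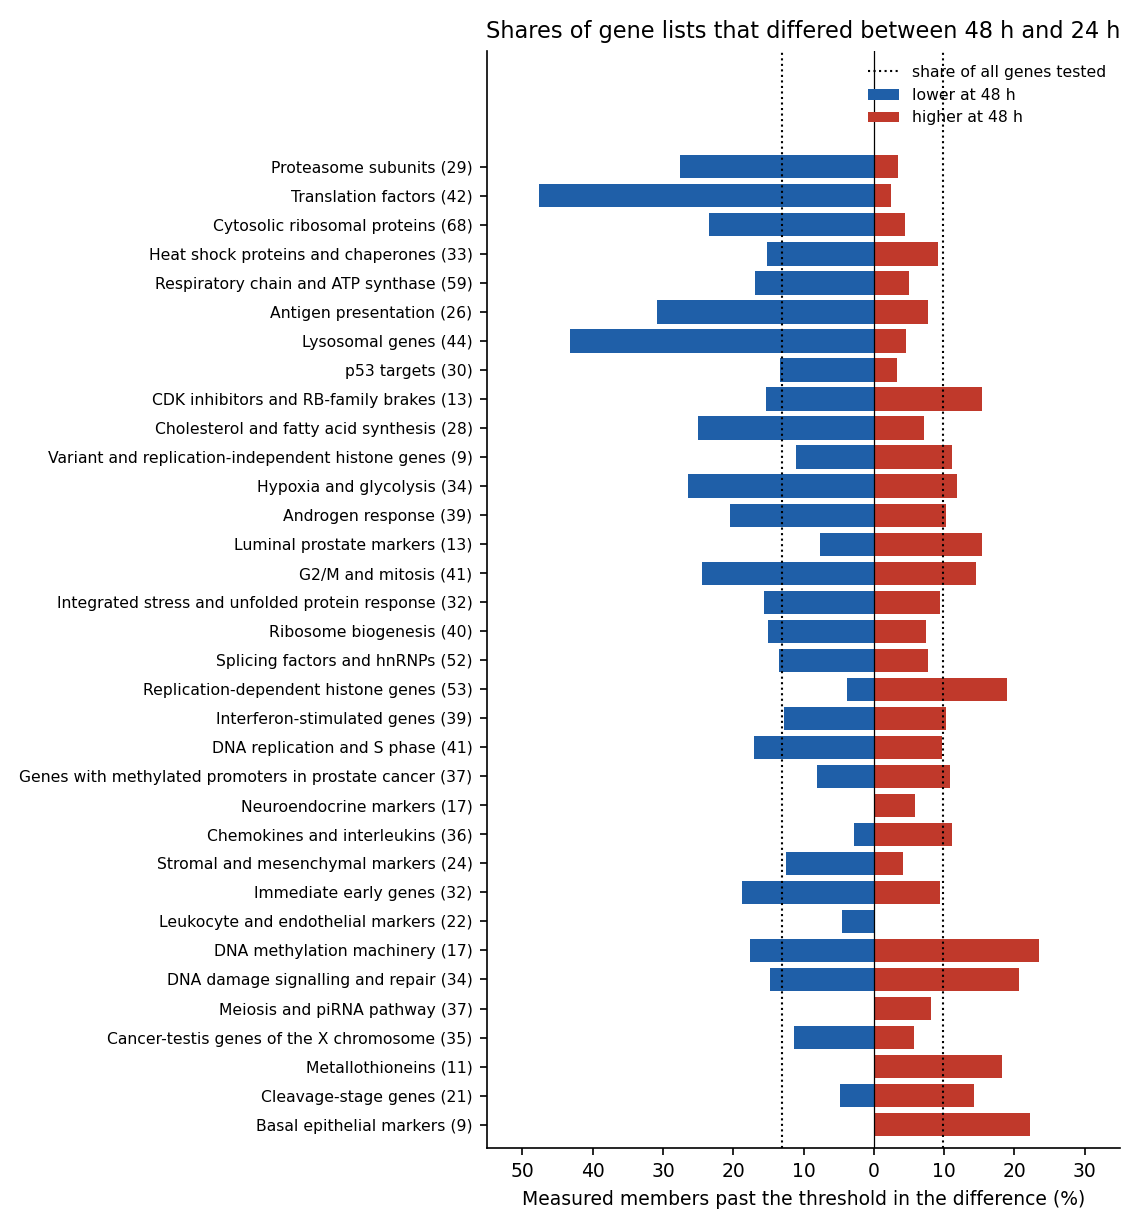
Bars give, for each of 34 gene lists, the percent of measured members lower (left, blue) and higher (right, red) at 48 h than at 24 h by limma; numbers in parentheses are measured members, dotted lines mark 13.1% and 9.83% of all genes, and lists are ordered by their median difference. Translation factors (47.6%) and lysosomal genes (43.2%) have the longest blue bars.

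Cell division genes as a list were below vehicle at both times, and members moved both ways. Of 41 measured G2/M and mitosis genes 10 (24.4%) were lower and 6 (14.6%) higher, beside 13.1% and 9.83% of all genes. The balance turned with the scaling, to 5 lower and 11 higher in arrays scaled to one spread, and to 5 lower and 14 higher after quantile normalization. Over all 18334 genes the calls rose as well, to 3470 lower and 3150 higher with scaled arrays. After quantile normalization they were 3206 lower and 3673 higher. The list median was -1.55 and -1.56 at 24 h and -1.61 and -1.82 at 48 h. Its median difference of -0.36 became positive, up to 0.28, when the arrays were scaled to one spread or quantile normalized. MAD2L1, a protein of the spindle checkpoint, deepened from -0.77 and -0.79 to -2.99 and -2.88 (difference -2.15 ± 0.06, limma adjusted p = 0.0211). FOXM1, the transcription factor that drives many G2/M genes, went from -1.48 and -1.44 to -2.35 and -2.43 (difference -0.93 ± 0.06, limma adjusted p = 0.0245), and the proliferation marker MKI67 from -2.08 and -1.95 to -5.07 and -4.27 (difference -2.66 ± 0.35, limma adjusted p = 0.0415). None of these 3 passed the threshold under either scaling. With the arrays scaled to one spread the differences were -1.70 in MAD2L1, -0.39 in FOXM1 and -1.84 in MKI67 (limma adjusted p = 0.0808, 0.412 and 0.249), and after quantile normalization they were -1.60, -0.26 and -2.01 (limma adjusted p = 0.0573, 0.463 and 0.0956). NUF2, part of the kinetochore complex that binds microtubules, recovered in part, from -2.53 and -2.51 to -1.53 on both 48 h arrays (difference 0.99 ± 0.04, limma adjusted p = 0.0228). CDC20, the activator of the anaphase-promoting complex, turned from 0.25 and 0.37 to -1.48 and -1.72 (difference -1.91 ± 0.12, limma adjusted p = 0.0256). ASPM, a protein of the spindle pole, was higher by 1.80, and BIRC5, which encodes survivin, was lower with a difference of -0.49, a difference that was positive under both scalings. CDC20, ASPM and BIRC5 were outside the rule for named genes.

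Promoters of cell division genes share elements that bind the DREAM complex and NF-Y, so those of the 3 members with the lowest p that had an entry are shown. They are the 250 bases before the transcription start from RefSeq (GRCh38.p14), 5′ to 3′ on the strand of the gene, with the letters TTTGAA (the cell cycle homology region) and CCAAT in capitals where they occur on either strand, the opposite strand reading TTCAAA and ATTGG. MAD2L1 lies at chr4:120066849-120067098 on the minus strand, NUF2 at chr1:163321704-163321953 on the plus strand and CDC20 at chr1:43358731-43358980 on the plus strand.
MAD2L1: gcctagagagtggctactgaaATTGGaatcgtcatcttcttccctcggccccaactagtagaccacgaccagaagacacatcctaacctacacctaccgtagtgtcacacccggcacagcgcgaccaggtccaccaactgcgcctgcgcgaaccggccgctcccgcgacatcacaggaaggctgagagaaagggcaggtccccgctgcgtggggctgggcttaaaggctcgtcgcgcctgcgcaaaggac
NUF2: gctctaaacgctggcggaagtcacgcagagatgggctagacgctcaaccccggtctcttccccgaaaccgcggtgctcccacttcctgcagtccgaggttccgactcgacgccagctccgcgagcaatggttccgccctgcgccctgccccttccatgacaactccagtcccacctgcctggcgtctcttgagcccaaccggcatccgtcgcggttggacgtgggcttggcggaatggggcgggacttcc
CDC20: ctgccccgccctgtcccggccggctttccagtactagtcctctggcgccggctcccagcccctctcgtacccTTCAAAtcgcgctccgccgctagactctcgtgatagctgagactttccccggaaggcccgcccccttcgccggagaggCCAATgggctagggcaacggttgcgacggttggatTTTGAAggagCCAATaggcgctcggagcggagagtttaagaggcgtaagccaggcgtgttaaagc
MAD2L1, which deepened, holds 1 CCAAT and no TTTGAA, NUF2, which recovered in part, holds neither, and CDC20, which turned, holds 2 of each. Of the 35 list members with a promoter in the table, 19 (54.3%) held TTTGAA and 28 (80%) held CCAAT. The shares were 10.3% and 34.6% of the 14410 promoters of measured genes, and 13.6% and 33% of all 27305 promoters of the same length. A match is a description of the letters and says nothing on binding.

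DNA replication genes likewise moved both ways. Of 41 measured genes 7 (17.1%) were lower and 4 (9.76%) higher, and the median of -0.097 changed sign under both scalings. PRIM1, the primase subunit, was at vehicle level at 24 h (0.0098 and 0.0010) and below it at 48 h (-1.04 and -1.07), a difference of -1.06 ± 0.04 (limma adjusted p = 0.0225) with all 10 features below 0. ORC1, which marks replication origins, changed by -1.55 ± 0.07 (limma adjusted p = 0.023). POLA1, the DNA polymerase that extends the primers, went in the opposite direction, from -0.89 and -0.86 to 0.63 and 0.79 (difference 1.58 ± 0.08, limma adjusted p = 0.0233). Of 34 genes of DNA damage signalling and repair 7 (20.6%) were higher and 5 (14.7%) lower. The base excision pair UNG, which removes uracil, and APEX1, which cuts the abasic site, were lower. UNG went from 0.89 and 0.96 to -2.03 and -2.15 (difference -3.01 ± 0.07, limma adjusted p = 0.0211) and APEX1 changed by -2.82 ± 0.18 (limma adjusted p = 0.0256). RAD54B, a motor of homologous recombination, was higher by 0.88 ± 0.06 (limma adjusted p = 0.0262), with all 10 features above 0.

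Histone genes that are transcribed in S phase split by histone class. Of 53 measured genes 10 (18.9%) were higher and 2 (3.77%) lower, although the list median was -0.14 and was below 0 in each alternative run. The excess of higher over lower calls depended on the setting. It was 9 higher and 7 lower in arrays scaled to one spread, beside 3150 and 3470 of all 18334 genes. Quantile normalization gave 13 and 6, beside 3673 and 3206 of all genes. Without features at 0 the counts were 10 and 8, beside 3549 and 3812 of 15571 genes. H4C1 stood at -0.24 and -0.42 at 24 h and at 0.99 and 1.00 at 48 h (difference 1.33 ± 0.09, limma adjusted p = 0.0257). H4C4 went from -0.038 and -0.087 to 0.88 and 1.01 (difference 1.01 ± 0.07, limma adjusted p = 0.0268) and the linker histone gene H1-3 from 0.029 and -0.0074 to 1.1 and 1.28 (difference 1.18 ± 0.09, limma adjusted p = 0.0274). All 3 were near or below vehicle at 24 h and about 2-fold above it at 48 h. Of 5 linker H1 genes 3 were higher and all 5 differences lay above 0, with H1-1 at 2.12, and of 11 H4 genes 4 were higher, with 9 differences above 0. In contrast all 16 H2B genes had a difference below 0, with a median of -0.75, of which 1 passed the threshold, H2BC21 (-1.71). Of 10 H3 genes 7 lay below 0 and 1 passed the threshold, H3C10 (-1.23), whereas H2A genes had 3 higher of 11 and differences on both sides of 0. The medians of the H1, H4, H2B and H3 classes kept their sign when the arrays were scaled to one spread or quantile normalized. The classes were compared after their values were seen. Genes of a class have near-identical coding sequences and may share signal, and the primer of the reverse transcription, per the labels, was of the oligo-dT kind, whereas these transcripts normally lack a poly(A) tail. The part of either in these ratios was not tested.

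In the DNA methylation machinery, the target of the drug, several members passed the test and DNMT1 did not. DNMT1, the maintenance methyltransferase, stood at -0.66 and -0.58 at 24 h and at -0.72 and -0.65 at 48 h (difference -0.06 ± 0.06, limma adjusted p = 0.522). Of 17 measured genes 4 (23.5%) were higher and 3 (17.6%) lower. DNMT3B, a de novo methyltransferase named after its value was seen, turned from -1.07 and -1.12 to 0.58 and 1.31 (difference 2.04 ± 0.32, limma adjusted p = 0.0474). TET2, which oxidises methylcytosine, went from -0.97 and -1.17 to 0.12 and 0.34 (difference 1.30 ± 0.13, limma adjusted p = 0.0343). MBD3, a subunit of the NuRD complex, came back from -0.61 and -0.62 to -0.096 and -0.082 (difference 0.53 ± 0.04, limma adjusted p = 0.0286). TRIM28, the corepressor that silences endogenous retroviruses, was lower with a difference of -2.23 ± 0.12 (limma adjusted p = 0.0238), and the differences of its 2 features were -4.08 and -0.38.

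Cancer-testis genes of the X chromosome, normally silent outside the testis, stayed far above vehicle as a list. They had medians of 2.24 and 2.62 at 24 h and 2.64 and 2.03 at 48 h. Of 35 measured genes 2 (5.71%) were higher and 4 (11.4%) lower, both shares below the 9.83% and 13.1% of all genes. The list's median difference was 0.22 as deposited, but -0.46 in scaled arrays and 0 after quantile normalization. Leaving out 48 h replicate 1 also gave 0. SPANXA1 stood at 4.70 and 4.49 and then at 5.94 and 6.05 (difference 1.41 ± 0.11, limma adjusted p = 0.0281), and CT45A1 at 4.45 and 4.67 and then at 5.87 and 5.88 (difference 1.31 ± 0.10, limma adjusted p = 0.0282). Both differences fell below 0 when the arrays were scaled to one spread (-0.11 and -0.18). MAGEA4 went from above to below vehicle, from 1.51 and 1.58 to -1.52 and -2.06 (difference -3.34 ± 0.24, limma adjusted p = 0.0267). Its relative MAGEA12 (-2.11), TEX11 (-2.56) and FTHL17 (-1.23), named after their values were seen, were lower as well. As deposited, 2 MAGE genes and 2 other members thus moved opposite to SPANXA1 and CT45A1. These few calls do not describe the list as a whole. Members of these families have near-identical copies, and the specificity of the features was not tested.

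Meiosis and piRNA genes had medians of 0.74 and 0.80 at 24 h and 1.33 and 1.44 at 48 h. Of 37 genes 3 (8.11%) were higher and 0 lower, fewer calls than among all genes. However, 11 of the 37 had a feature at exactly 0, and 3 stood at 0 on all arrays. Once features at 0 were removed, the list gave 10 higher and 2 lower of 28, beside 3549 and 3812 of 15571 genes. The median difference of the list, 0.21 as deposited, depended on the scaling. It was -0.13 in scaled arrays and 0 after quantile normalization. MAEL, which protects germ cells from transposons, stood at 5.68 and 5.83 and then at 7.08 and 6.79 (difference 1.18 ± 0.15, limma adjusted p = 0.0404), but a difference of -0.62 with the arrays scaled to one spread. PLD6, a nuclease of piRNA biogenesis, went from -0.23 and -0.051 to 1.39 and 1.90 (difference 1.79 ± 0.23, limma adjusted p = 0.0415). Of 21 cleavage-stage genes, active in early embryos, 3 (14.3%) were higher and 1 (4.76%) lower, beside 9.83% and 13.1% of all genes, with a median of 0.39. With the arrays scaled to one spread 0 were higher and 2 lower, beside 3150 and 3470 of all 18334 genes, and the list median was -0.34. RFPL2 was higher by 1.19 ± 0.05 (limma adjusted p = 0.0225), and DPPA2, a pluripotency factor, by 0.80 ± 0.07 (limma adjusted p = 0.0309). RFPL4B stood at 3.35 and 3.46 at 24 h and was listed at exactly 0 on both 48 h arrays, a value the scanner software also writes where no ratio was measured.

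Genes whose promoters are commonly methylated in prostate cancer gave 4 higher (10.8%) and 3 lower (8.11%) of 37, near the shares over all genes, with a median of -0.051. GSTP1, the glutathione transferase whose promoter is methylated in most prostate cancers, stood at 3.84 and 4.18 at 24 h and at 5.61 and 6.54 at 48 h. The times did not overlap, as in 13030 of all 18334 genes, and its 10 features, read on the same arrays, lay between 1.99 and 2.19. The difference of 2.06 ± 0.43 missed the threshold (limma adjusted p = 0.0635). LGALS3, which encodes galectin-3 and was named after its value was seen, had the highest ratio of the called genes at both times, 7.57 and 7.72 and then 9.73 and 9.20 (difference 1.82 ± 0.24, limma adjusted p = 0.0419), but a difference of -0.59 with the arrays scaled to one spread. APC, the tumour suppressor of the Wnt pathway, was lower with a difference of -2.78 ± 0.22 (limma adjusted p = 0.0279) with features from -3.91 to 0.60. KLF8, a transcription factor, was higher by 1.17 ± 0.12 (limma adjusted p = 0.0339). PTGS2, the inducible cyclooxygenase, was lower with a difference of -1.74 ± 0.10 (limma adjusted p = 0.0242), with an exact 0 on at least 1 array in 10 of its 11 features.

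Antigen presentation genes were above vehicle at 24 h and near it at 48 h. Of 26 measured genes 8 (30.8%) were lower and 2 higher, and the median went from 0.62 and 0.54 to 0.054 and -0.12. HLA-E, a class I molecule read by natural killer cells, turned from 1.14 and 1.23 to -0.68 and -0.96 (difference -2.01 ± 0.13, limma adjusted p = 0.0257). HLA-B went from 1.42 and 1.20 to -0.86 and -1.42 (difference -2.45 ± 0.26, limma adjusted p = 0.0358) and HLA-F changed by -1.30 ± 0.11 (limma adjusted p = 0.0295). Each of these class I genes was above vehicle at 24 h and below it at 48 h. Class II genes, which present peptides to helper T cells, were lower in 4 of 5 cases and higher in 0, a count made after their values were seen. The immunoproteasome subunits split, with PSMB9 lower with a difference of -2.09 and PSMB10 higher by 0.65, both named after their values were seen.

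Interferon-stimulated genes differed about as often as all genes, with 5 of 39 (12.8%) lower and 4 (10.3%) higher. TRIM22, an antiviral protein that p53 also induces, stood at 3.08 and 2.95 and then at 3.92 and 3.96 (difference 0.92 ± 0.07, limma adjusted p = 0.0276), a difference that was -0.0738 with the arrays scaled to one spread. PARP9 went from 0.45 and 0.47 to -0.26 and -0.27 (difference -0.73 ± 0.04, limma adjusted p = 0.0244), and HERC6 was lower with a difference of -1.42 ± 0.15 (limma adjusted p = 0.035). Outside the rule, the interferon gene IFI27 (1.27) and the RNA helicase DHX58 (2.09) were higher, while IRF1 (-1.93), a transcription factor of the pathway, and HERC5 (-1.81) were lower. Chemokines and interleukins had 4 of 36 (11.1%) higher and 1 lower.

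Among p53 targets 4 of 30 (13.3%) were lower, near the 13.1% of all genes, and 1 (3.33%) was higher, beside 9.83% of all genes. The list median was 1.06 and 1.1 at 24 h and 0.80 and 0.41 at 48 h. CDKN1A, the p21 inhibitor of cyclin-dependent kinases, stood at 2.38 and 2.56 at 24 h and at 0.74 and -0.0049 at 48 h (difference -2.10 ± 0.33, limma adjusted p = 0.048). All 11 CDKN1A features lay between -2.27 and -1.51, and the 48 h arrays lay further apart than the 24 h arrays. PPM1D, the phosphatase that switches p53 signalling off, was lower with a difference of -1.40 ± 0.19 (limma adjusted p = 0.042). SESN1, a sestrin, was below vehicle at both times, at -0.90 and -0.82 and then -2.35 and -2.58 (difference -1.60 ± 0.12, limma adjusted p = 0.0268). PURPL, a long non-coding RNA that p53 induces, was in contrast among the 12 highest called genes with no feature at exactly 0 on any array, at 0.56 and 0.40 and then 3.21 and 3.87 (difference 3.06 ± 0.30, limma adjusted p = 0.0325). Of 13 CDK inhibitors and related brakes 2 (15.4%) were higher and 2 (15.4%) lower, beside 9.83% and 13.1% of all genes. Among the lower was CCNG2, a cyclin of arrested cells, whose 3 features ran from -3.05 to 0.86.

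**Figure D3:**
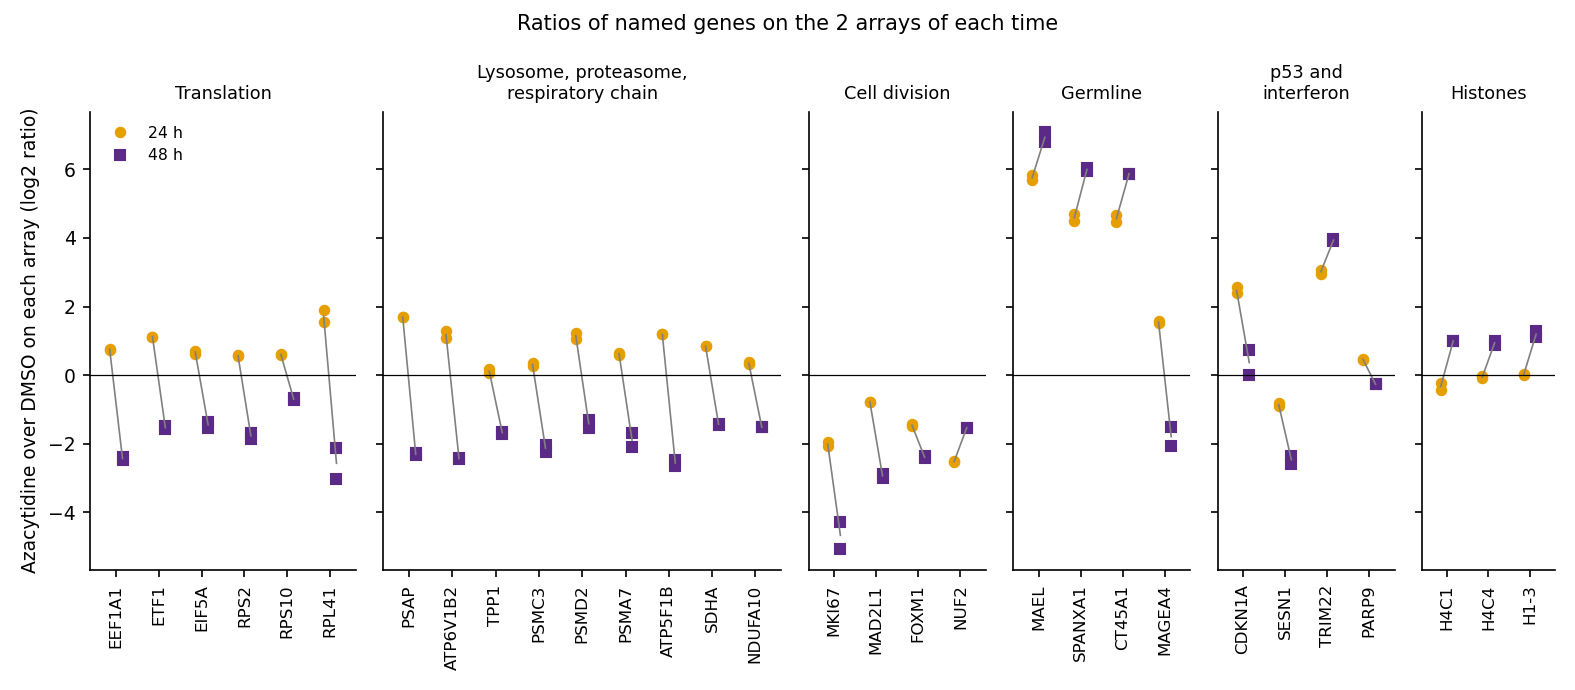
Log2 ratios of azacytidine over DMSO on each of the 2 arrays at 24 h (circles) and at 48 h (squares) for named genes of 6 groups, with grey lines joining the means of each time. Genes of translation, lysosome, proteasome and respiratory chain cross 0 downwards, MAEL, SPANXA1 and CT45A1 stay above 4 at both times, and MKI67, MAD2L1 and FOXM1 lie below 0 at 24 h and further below at 48 h as deposited, differences that missed the threshold under both scalings.

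Early response and stress genes moved both ways. Of 32 immediate early genes 6 (18.8%) were lower and 3 (9.38%) higher, and the sign of their median, 0.071, changed under both scalings. DUSP1, a phosphatase that ends MAP kinase signalling, went from 1.95 and 2.03 to 0.35 and 0.00050 (difference -1.81 ± 0.16, limma adjusted p = 0.0299), and DUSP2 from 1.30 and 1.36 to -0.27 and -0.36 (difference -1.65 ± 0.06, limma adjusted p = 0.0225). MYC, a transcription factor of growth, changed by -1.59 ± 0.13 (limma adjusted p = 0.029), with 11 of 12 features below 0. Of 32 genes of the integrated stress and unfolded protein response 5 (15.6%) were lower and 3 higher, with a median of -0.35. SLC7A11, the cystine transporter, turned from 1.00 and 0.66 to -2.48 and -2.74 (difference -3.44 ± 0.19, limma adjusted p = 0.0241), and the pseudokinase gene TRIB3 changed by -1.74 ± 0.09 (limma adjusted p = 0.0238) with 1 of its 2 features at 0.12. The stress transcription factors ATF4 (1.11), DDIT3 (-1.37) and XBP1 (-2.86), named after their values were seen, did not move as a unit. Of 11 metallothioneins 2 were higher and 0 lower. MT3 was higher by 1.15 ± 0.13 (limma adjusted p = 0.0366) and MT1M by 0.55 ± 0.05 (limma adjusted p = 0.032), the latter at -0.57 with the arrays scaled to one spread.

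Androgen response genes were lower in 8 of 39 cases (20.5%) and higher in 4 (10.3%), with list medians of 0.76 and 0.78 at 24 h and 0.34 and 0.20 at 48 h. ACP3, the prostatic acid phosphatase, stood at 0.078 and 0.032 at 24 h and at -2.36 and -2.77 at 48 h (difference -2.62 ± 0.19, limma adjusted p = 0.0265). TSC22D3, a leucine zipper protein induced by steroid hormones, was lower with a difference of -1.78 ± 0.14 (limma adjusted p = 0.0275). KLK3, which encodes prostate-specific antigen, stood at 1.21 and 1.12 and then at 1.12 and 1.20 (difference -0.0024 ± 0.07, limma adjusted p = 1), a mean over 3 features whose differences ran from -2.41 to 1.43. Of 13 luminal markers 2 (15.4%) were higher and 1 (7.69%) lower, beside 9.83% and 13.1% of all genes. The lower one was ACP3. Although more were called higher, 10 of the 13 differences lay below 0. The list median of -0.36 was below 0 in each alternative run. SLC45A3, which encodes prostein, was higher by 1.43 ± 0.17 (limma adjusted p = 0.0382), and KRT18, a luminal keratin, by 0.28 ± 0.04 (limma adjusted p = 0.0467), again over features of opposite sign.

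Counts for markers of other cell types depended on how features listed at 0 were treated. Of 9 basal epithelial markers 2 (22.2%) were higher and 0 lower, beside 23% of all genes called in either direction, KRT15 by 1.47 ± 0.16 (limma adjusted p = 0.0366) and the integrin gene ITGB4 by 0.82 ± 0.10 (limma adjusted p = 0.0403). ITGA6, another integrin gene of that list, went the other way, from 0.27 and 0.19 to -1.46 and -2.28. Its difference of -2.10 ± 0.35 missed the threshold (limma adjusted p = 0.0515). Of the 9 differences 6 lay above 0 and 2 below. Of 17 neuroendocrine markers 1 was higher, SCG2, a secretory granule protein, from -0.68 and -0.33 to 1.82 and 1.94 (difference 2.39 ± 0.16, limma adjusted p = 0.0259). Stromal and mesenchymal markers gave 3 lower and 1 higher of 24, and leukocyte and endothelial markers 1 lower and 0 higher of 22. Without features at 0, stromal and mesenchymal markers gave 4 lower and 5 higher of 16 and leukocyte and endothelial markers 1 lower and 5 higher of 12. Calls over all genes rose in that setting too, to 7361 of 15571 (3812 lower, 3549 higher). FN1, the fibronectin gene, was lower with a difference of -1.25 ± 0.19 (limma adjusted p = 0.0476), but was at 0.097 when features of one accession were averaged first. These ratios do not show whether any of these cell types was present.

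Among called genes with no feature at exactly 0 on any array, the extremes of the difference were mostly genes outside these lists. Of the 12 lowest, LYPLA1, a lysophospholipase that removes palmitate from proteins, turned from 2.56 and 2.35 to -2.89 and -2.52 (difference -5.16 ± 0.18, limma adjusted p = 0.0213), in both of its features. GMPPB, which makes GDP-mannose for glycosylation, turned from 2.20 and 2.28 to -2.11 and -2.12 (difference -4.36 ± 0.06, limma adjusted p = 0.0211). The others were ANKRD36BP1 (-5.46), the lysosomal membrane protein gene LAPTM4B (-4.53), the steroid sulphatase gene STS (-4.51), the hydroxylase gene CYP39A1 (-4.50), the mitochondrial methionyl-tRNA synthetase gene MARS2 (-4.39), the small nucleolar RNA SNORD14E (-4.29) and MIF4GD (-4.27), with SF3B4, MSMO1 and RPL41 above. SNORD14E lies within an intron of HSPA8. All 12 were above vehicle on both 24 h arrays and below it on both 48 h arrays.

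The SE of the 12 highest genes in the same ranking ran from 0.30 to 1.00, against 0.06 to 0.66 for the 12 lowest. The long non-coding RNA LINC03156 stood at -3.12 and -3.68 at 24 h and at 2.13 and 4.39 at 48 h (difference 6.66 ± 0.99, limma adjusted p = 0.0461), and CABP7, a calcium-binding protein, at -3.38 and -3.37 and then at 1.61 and 3.94 (difference 6.15 ± 1.00, limma adjusted p = 0.0495). In both the 48 h arrays lay more than 2 apart. Next came LOC100506124 (4.18), the potassium channel gene KCNG4 (3.44), CFAP53 (3.18), ARHGEF35 (3.10), LINC00662 (3.08), the myosin phosphatase subunit gene PPP1R12B (3.07), PURPL (3.06), the taste receptor gene TAS2R50 (3.03), ANKRD42-DT (3.0) and C6orf47 (2.94). Apart from PURPL, each was below vehicle on both 24 h arrays and above it on both 48 h arrays. Over all genes, 13.2% of 1063 long non-coding RNAs were higher and 5.46% lower, against 9.54% and 13.7% of 16723 protein-coding genes. Of the long non-coding RNAs 16.5% were listed at 0 on all arrays, against 5.18% of protein-coding genes, and the part of this in the shares was not tested.

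Promoter CpG content differed little between the directions. Among protein-coding genes with a promoter of 250 bases in the RefSeq table, the median number of CpG dinucleotides was 19 in 1312 higher genes, 21 in 1945 lower genes and 18 in 10370 genes that were not called. The quartiles overlapped widely, at 9 and 27, 14 and 28, and 7 and 26.

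The agreement between features of one gene varied. Of 4211 called genes 1873 had several features, and in 1326 of these all features had one sign, whereas in 492 some were above 0 and some below. In 235 accessions measured by at least 10 features, the median SD of the difference among features was 0.163. The features of ADM and GSTP1 lay close together, as given above, as did the 11 of IFI27, between 1.19 and 1.46, while the 10 of PRIM1 ran from -1.44 to -0.87. Features aimed at different transcripts or regions did not agree in RPL13A, KRT18 (from -1.75 to 2.57) or APPBP2, an adaptor protein (from -3.96 to 2.48), so that the gene means of those 3 describe no single feature.

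**Figure D4:**
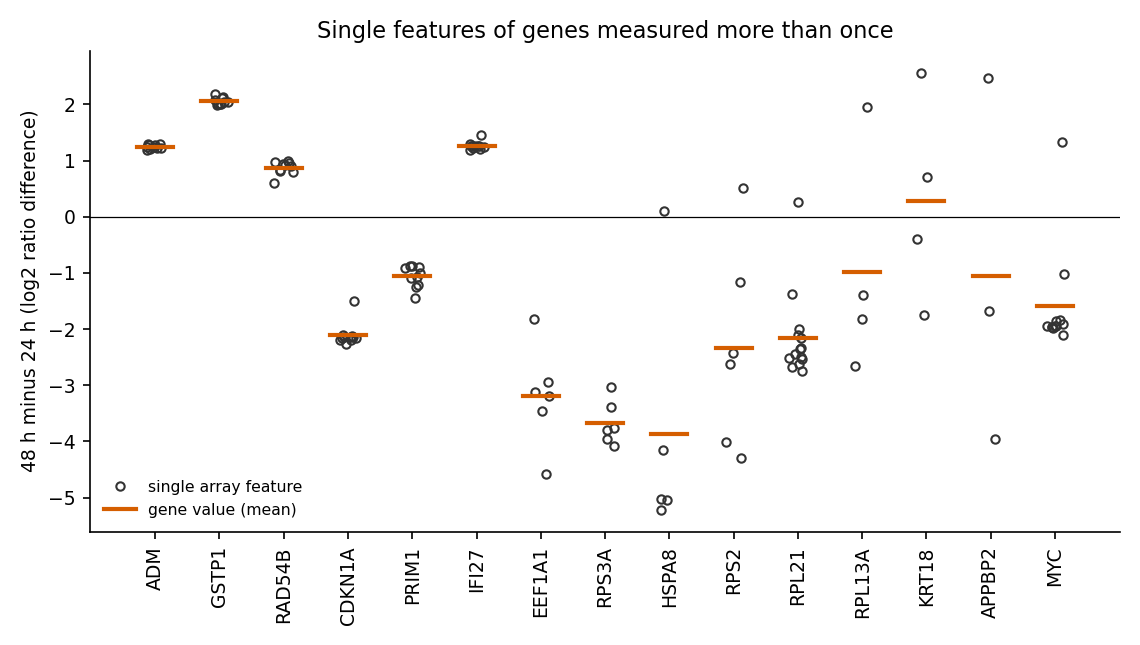
Each circle is the difference (48 h minus 24 h, log2 ratio) of a single array feature, and each bar the mean over the features of that gene, for 15 genes chosen after their values were seen. ADM, GSTP1 and IFI27 features lie close together, and those of CDKN1A run from -2.27 to -1.51. Features of RPL13A, KRT18 and APPBP2 lie on both sides of 0.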

How the data were processed

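Total RNA of azacytidine-treated and DMSO-treated LNCaP cells was compared on 4 arrays, 2 at each time. The authors deposited 1 table of log10 ratios with 45220 rows, 1844 of them blank. The software was Agilent Feature Extraction 8.5.1.1, per the submitters' processing notes, with settings not given in the sources used here. Neither base nor direction is named in the deposited table. They were taken as log10 of Cy5 over Cy3, the convention of that software, and multiplied by 3.32 (log2 of 10), so the scale depends on this convention, and the direction also on the labelled dyes. Each column had a median of 0, and how it was centred is not known. Between 6011 and 6695 features per array were listed at exactly 0. Intensities were not used here, so no filter on signal was set, and the number of arrays limits the precision. The labels give 1 slide for all arrays.

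Of 43376 features with values, 31332 carried 1 gene symbol in the platform annotation (93 had several, 11951 none), and averaging the features of each gene gave 18334 genes. The SD of gene ratios was 0.915 and 0.954 at 24 h and 1.07 and 1.28 at 48 h. Ratios were fitted with limma 3.58.1 (R 4.3.3) with 1 mean per time over 4 arrays, 2 residual and 0.735 prior degrees of freedom, and Benjamini-Hochberg adjustment over all 18334 genes at 0.05. The fit was run on simulated data that gave a gene the same spread at both times. The 48 h arrays here spread more than the 24 h arrays, and that case was not simulated. Figures used matplotlib 3.10.9.

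The members, the 34 gene lists (1075 measured genes) and the tests were chosen with earlier results of these data known. The rule for named genes took the 12 highest and 12 lowest called genes without an exact 0, the 5 highest and 5 lowest that changed from one side of vehicle to the other by means of at least 0.5, the 3 members of each list with the lowest p, and 5 single genes, GSTP1, DNMT1, CDKN1A, KLK3 and MKI67. Promoters are from the RefSeq table of GRCh38.p14, which held one for 14410 genes (78.6%). CpG counts were limited to protein-coding genes because among all higher genes 78.4% had a promoter. Alternatives were a replicate block, scaling of the arrays, features in place of genes, removal of values at 0, other variance models, a size threshold and each array left out in turn.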

Additional observations from a re-analysis of the deposited data

Results flagged for a closer look

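In these 10 genes every 24 h array lay on one side of vehicle and every 48 h array on the other, with means of at least 0.5 at each time. Each had a difference past limma's threshold and no feature at exactly 0 on any array. They are the 5 highest and 5 lowest such differences of 1113 genes of this kind, of which 304 turned upwards and 809 downwards. Upwards the differences were 6.66 in LINC03156, 6.15 in CABP7, 4.18 in LOC100506124, 3.44 in KCNG4 and 3.18 in CFAP53. Downwards they were -5.46 in ANKRD36BP1, -5.16 in LYPLA1, -4.79 in SF3B4, -4.70 in MSMO1 and -4.53 in LAPTM4B. The 2 features of KCNG4 differed, at 1.82 and 5.06, as did those of LAPTM4B, at -5.99 and -3.07, whereas those of LYPLA1 were close.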

How the results depend on the processing

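The number of calls, not the direction of single genes, depended most on the processing. Limma called 4211 genes (1802 higher, 2409 lower). Scaling the arrays to one median absolute deviation gave 6620 (3150, 3470), quantile normalization 6879 (3673, 3206), tests of single features 7482 (3280, 4202), removal of features at 0 7361 (3549, 3812), removal of genes at 0 on all arrays 6884 (3242, 3642), robust variance moderation 2609 (939, 1670) and a test against a 1.5-fold change 446 (31, 415). With each array left out in turn the counts ran from 0 to 7786 (0 to 3339 higher, 0 to 4447 lower). They were 0 without either 24 h array, where the spread came from the 48 h arrays alone. With a replicate block limma called 0 genes in all, 0 higher and 0 lower (7063 at an unadjusted p under 0.05). Deviations of arrays with the same replicate number did not correlate (r = -0.0347), so the numbers were not taken as pairs.

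Of 181 named genes that were called, 172 kept their direction with scaled arrays, 180 with quantile normalization and 179 with features of one accession averaged first. With scaled arrays the difference became -0.0738 in TRIM22, -0.11 in SPANXA1, -0.18 in CT45A1, -0.62 in MAEL, -0.57 in MT1M, -0.59 in LGALS3, -0.19 in ANGPTL4, -0.0254 in HSPA6 and 0.11 in BIRC5, which was 0.19 after quantile normalization. With accessions averaged first it was 0.0011 in RPL13A and 0.097 in FN1. The causes were not tested.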
